A study of Mus musculus with 16 samples.

Results

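The course of 9 transcription factor genes that specify or tune macrophages was followed through a response to LPS: Spi1, Maf, Mitf, Tfec, Runx1, Egr1, Egr2, Klf2 and Klf4. Members were found by the gene name that the scanner files give each probe. Under those names 7 of the 9 genes have 13 probes, and the remaining 2 genes have 3 probes under older names, Sfpi1 for Spi1 and Tcfec for Tfec, which were updated through the accession of the probe. All 16 probes were well above background on all 16 arrays, so all 9 genes are among the 17659 genes tested. Total RNA came from marrow-derived macrophages of male C57BL/6Jax mice, either miR-155 KO or wild type (WT), cultured with M-CSF (10 ng/mL) for 9 days and then either given 100 ng/mL LPS for 6, 12 or 24 h or taken without LPS (0 h). LPS is a component of the Gram-negative bacterial outer membrane, and M-CSF is the cytokine that drives marrow cells towards macrophages. The 8 groups (KO and WT at each of 4 times) hold 2 samples each, 1 single-colour array per sample. Marrow was cultured whole and the adherent cells were taken. The labels do not say whether the 2 samples of a group came from separate animals or cultures, so p-values measure only the spread between these samples.

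Macrophage identity is built by a small set of DNA-binding proteins. Spi1 (PU.1), an ETS-family protein, opens enhancers across the myeloid lineage, and Runx1 acts upstream of it in blood progenitors and beside it at shared sites. Maf is a basic leucine zipper protein that helps hold mature macrophages out of the cell cycle and can drive Il10. Mitf and Tfec belong to one family of helix-loop-helix leucine zipper proteins that bind E-boxes of lysosomal and osteoclast genes. Egr1 and Egr2 are zinc-finger proteins made within minutes of many stimuli, and Klf2 and Klf4 are Krüppel-like zinc-finger proteins known for restraining inflammatory genes and for monocyte differentiation.

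The microRNA removed in the KO mice is mouse miR-155, from chromosome 16 (RefSeq, GRCm38.p6, chr16:84714143-84714165, plus strand for the 5p strand). It is shown because it is the genetic difference between the genotypes, with its seed (bases 2 to 8) in capitals. The array has 0 probes named for it or its host gene, so its loss was not checked here.
mmu-miR-155-5p: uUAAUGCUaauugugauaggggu

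Each factor is read by 60-base probes, and 5 of the 16 are shown: the 3 that cross exons and 1 each of Tfec and Klf2, whose probe pairs are compared in the results. Positions are given on mm9, as in the scanner files. The Spi1 probe covers chr2:90939665-90953452 on the plus strand, a span of 13788 bases for a 60-base probe, so it crosses exons. The Mitf probe (chr6:97956187-97960443, plus) and the Runx1 probe (chr16:92614003-92644455, minus) also cross exons. The Tfec probe (chr6:16795377-16795436, minus) starts at base 475 of its transcript, and the Klf2 probe (chr8:74843761-74843820, plus) at base 524.
Spi1: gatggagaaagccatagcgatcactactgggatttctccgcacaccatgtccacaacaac
Mitf: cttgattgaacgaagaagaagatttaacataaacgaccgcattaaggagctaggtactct
Runx1: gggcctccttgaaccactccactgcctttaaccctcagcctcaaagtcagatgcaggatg
Tfec: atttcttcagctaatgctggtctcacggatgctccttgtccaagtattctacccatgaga
Klf2: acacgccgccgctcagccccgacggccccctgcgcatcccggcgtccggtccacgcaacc

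Levels are log2 processed signals minus the upper quartile of the array, so 0 is the upper quartile and a step of 1 is a doubling. Levels of different genes are not set against each other, because probes differ in brightness. The scan session of an array equals its replicate number: the 8 arrays numbered 1 were scanned in one session and the 8 numbered 2 in another. A gene passed where its Benjamini-Hochberg adjusted p in limma, over all 17659 genes, was under 0.05, and results of the fit with a term for the session are given where they change a call. Errors written with ± are standard errors from limma without the session term. The upper quartile of the signal lay between 270.1 and 727.0 scanner units, and the share of probes well above background from 56.0% to 67.6%. Macrophage markers were present: all 9 markers with a probe, among them Csf1r, Adgre1 and Lyz2, were well above background on all 16 arrays.

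Spi1 was higher with LPS at every time in both genotypes, Tfec was higher at 6 h and below its 6 h level by 24 h, and Egr2 was lower at every time. At 6 h of LPS, 3 of the 9 factors passed in KO (Spi1, Tfec and Egr2), and 4 in WT (these and Klf2), against 26.0% of all genes in KO and 25.4% in WT. At 12 h 2 passed in KO and 3 in WT (19.4% and 19.3% of all genes), and at 24 h 2 in each genotype (9.90% in KO and 11.0% in WT). With the session term 4 passed in KO and 5 in WT at 6 h (43.7% and 45.6% of genes), 4 in each at 12 h (38.3% and 37.6%) and 4 in each at 24 h (24.1% and 27.4%). With so few members, a count of this kind says little about the set.

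**Figure D1:**
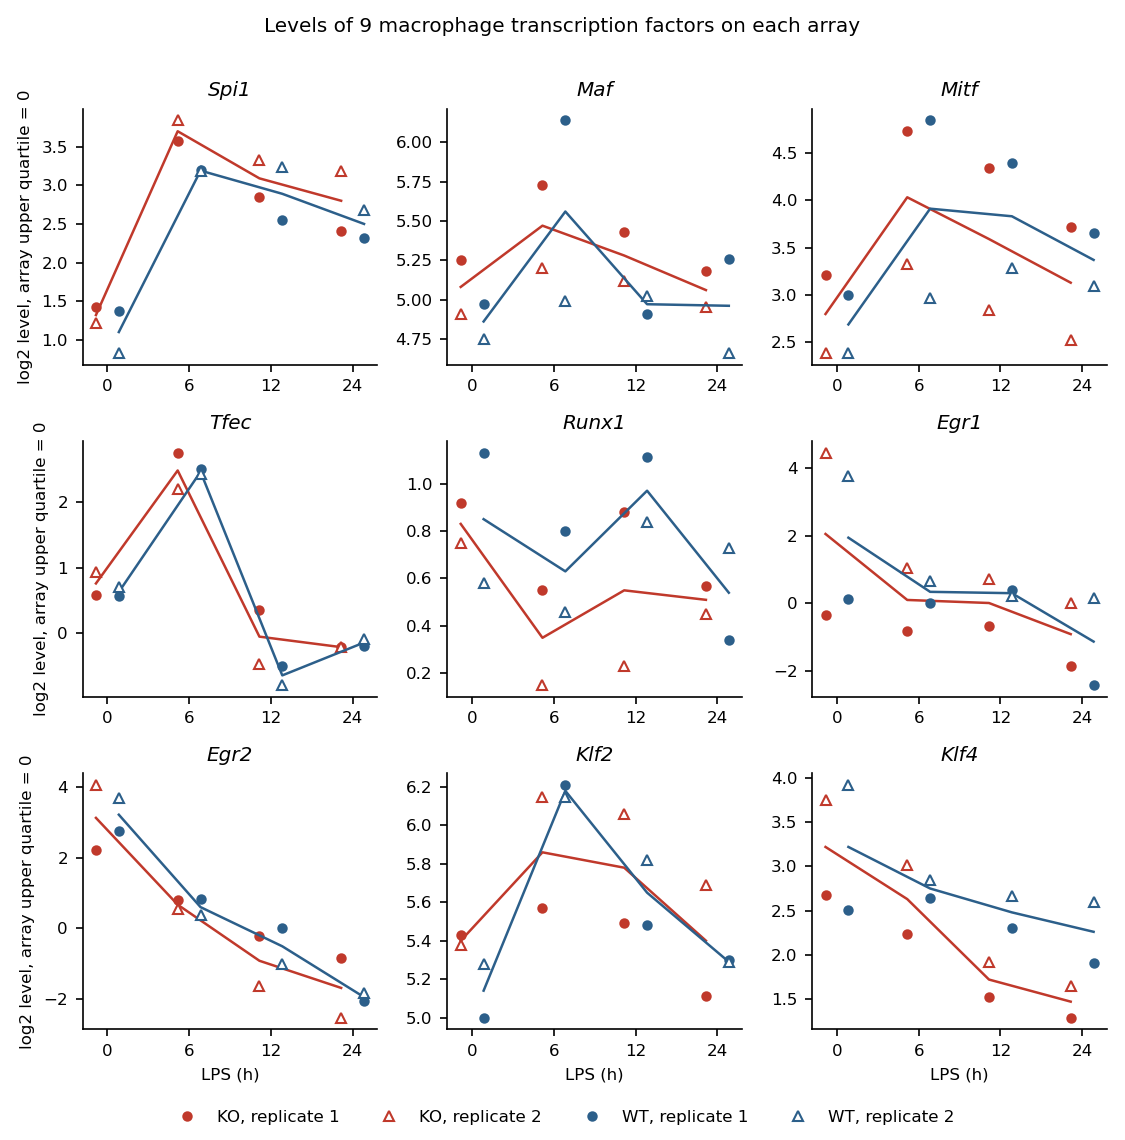
Each panel plots 1 factor: the log2 level (array upper quartile = 0) against hours of LPS, with times spaced evenly and a scale of its own. Circles are replicate 1, triangles replicate 2, lines the mean of both, KO in red to the left and WT in blue to the right. Spi1 lies above its 0 h arrays at every later time, Egr2 below, and Egr1 splits by replicate at 0 h.

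Spi1, the lineage's pioneer factor, rose at 6 h and stayed above the unstimulated level for the whole day. In KO macrophages its 2 arrays read 1.42 and 1.22 at 0 h, 3.57 and 3.84 at 6 h, 2.85 and 3.33 at 12 h, and 2.41 and 3.18 at 24 h. In WT macrophages they read 1.37 and 0.83 at 0 h, 3.20 and 3.18 at 6 h, 2.55 and 3.24 at 12 h, and 2.32 and 2.68 at 24 h. No array with LPS overlapped the unstimulated arrays of its genotype. At 6, 12 and 24 h this held in that direction for 25.7%, 27.1% and 22.2% of all genes in KO. In WT it held for 30.9%, 26.3% and 25.4%. At 6 h Spi1 was higher than at 0 h by 2.38 ± 0.36 in KO (5.22-fold, adjusted p = 0.00084) and by 2.09 ± 0.36 in WT (4.26-fold, adjusted p = 0.00187). At 12 h the rise was 1.77 ± 0.36 in KO (3.42-fold, adjusted p = 0.00627) and 1.79 ± 0.36 in WT (3.46-fold, adjusted p = 0.00596). At 24 h it was 1.48 ± 0.36 in KO (2.79-fold, adjusted p = 0.0262) and 1.40 ± 0.36 in WT (2.64-fold, adjusted p = 0.0307). The 6 h array pairs lay above the 24 h pairs in both genotypes, as for 25.1% of all genes in KO and 30.2% in WT. The decline from the 6 h level, -0.90 ± 0.36 in KO, passed only with the session term (adjusted p = 0.0489, against 0.131 without). That of -0.69 ± 0.36 in WT passed in neither fit (0.12 and 0.268). In these bulk samples, a change in the number of cells of a type and a change in RNA per cell cannot be told apart. The 6 h calls held without any single array, whereas at 24 h the call was lost without either 0 h KO array or the replicate 2 array at 24 h in KO (highest adjusted p 0.214), and without any 1 of the 4 WT arrays compared (highest 0.216). At 12 h it was lost without the KO replicate 2 array at 12 h (0.0619), or without the WT replicate 2 array at 0 h or 12 h (highest 0.0616). With median scaling in place of the upper quartile the 12 h and 24 h calls were lost, and with normexp background correction all of them were, with a 6 h difference of 2.33 in KO (adjusted p = 0.336) and 1.91 in WT (0.511). The normexp difference at 12 h was 0.47 in KO (adjusted p = 0.764) and 0.63 in WT (0.683).

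Runx1, Spi1's upstream partner, moved little. Its KO arrays read 0.92 and 0.75 at 0 h, 0.55 and 0.15 at 6 h, 0.88 and 0.23 at 12 h, and 0.57 and 0.45 at 24 h. Its WT arrays read 1.13 and 0.58, 0.80 and 0.46, 1.11 and 0.84, and 0.34 and 0.73 at the same 4 times. Every WT time with LPS overlapped the 0 h arrays, while in KO the 6 h and 24 h arrays lay below them, as for 29.7% and 22.5% of all genes. The change at 6 h was -0.49 ± 0.32 in KO (adjusted p = 0.317) and -0.22 ± 0.32 in WT (adjusted p = 0.672), and no change passed at any time in either fit. The exon-crossing Runx1 probe shown above ranged from -1.25 to -0.84 over the KO arrays and from -1.21 to -0.35 over the WT arrays. Its changes at 6 h were 0.07 ± 0.31 in KO and 0.48 ± 0.31 in WT (adjusted p over all probes 0.914 and 0.301), and its 8 group means correlated with those of the first probe at r = 0.03.

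Tfec, the macrophage-restricted relative of Mitf, gave a pulse. In KO it read 0.58 and 0.94 at 0 h, 2.75 and 2.20 at 6 h, 0.36 and -0.46 at 12 h, and -0.21 and -0.21 at 24 h. In WT it read 0.57 and 0.70, 2.51 and 2.42, -0.49 and -0.79, and -0.19 and -0.09. The 6 h arrays stood above, and the 12 h and 24 h arrays below, all 0 h arrays of the same genotype. At 6 h 25.7% of all genes in KO and 30.9% in WT stood above in this way. Below stood 27.3% in KO and 28.3% in WT at 12 h, and 22.5% and 26.6% at 24 h. The rise at 6 h was 1.72 ± 0.31 in KO (3.29-fold, adjusted p = 0.00263) and 1.83 ± 0.31 in WT (3.55-fold, adjusted p = 0.00191). Between 6 h and 24 h the level fell by 2.68 in KO (adjusted p = 0.000814) and by 2.60 in WT (adjusted p = 0.00117), each ± 0.31, and both calls held without any single array. For 24 h against 6 h Tfec was the 1 member of 9 that passed in each genotype, against 12.9% of all genes in KO and 10.5% in WT. With the session term 4 passed in KO and 3 in WT, against 32.1% and 30.1%. With normexp correction the Tfec calls were lost, with adjusted p at 6 h of 0.0985 in KO and 0.0996 in WT, and of 0.105 and 0.103 for 24 h against 6 h.

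The later undershoot of Tfec below 0 h was less certain. At 12 h it was -0.81 ± 0.31 in KO, which passed only with the session term (adjusted p = 0.0418, against 0.102 without), and -1.27 ± 0.31 in WT (adjusted p = 0.0178). At 24 h it was -0.97 ± 0.31 in KO (adjusted p = 0.0301 with the session term, 0.0855 without) and -0.77 ± 0.31 in WT (0.0639 and 0.158). The WT call at 12 h was lost without either WT array at 0 h or the WT replicate 2 array at 12 h (highest adjusted p 0.122). The second Tfec probe, shown above, had the same course: its group means followed the first at r = 0.99, with a rise of 1.54 ± 0.79 in KO and 1.61 ± 0.79 in WT at 6 h, which passed only with the session term (adjusted p over all probes 0.0121 in KO and 0.00999 in WT, against 0.193 and 0.175 without).

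Mitf, which shares its target motif with Tfec, was highest at 6 h in both KO sessions and in the first WT session, on levels that differed between sessions. In KO it read 3.21 and 2.39 at 0 h, 4.73 and 3.33 at 6 h, 4.34 and 2.84 at 12 h, and 3.72 and 2.53 at 24 h. In WT it read 3.0 and 2.39, 4.84 and 2.97, 4.39 and 3.28, and 3.65 and 3.10. The replicate 1 array was the higher in all 8 groups. The difference from 0 h at 6 h was 1.23 ± 0.78 in KO (1.52 and 0.94 within the sessions) and 1.21 ± 0.78 in WT (1.84 and 0.59). It passed only with the session term (adjusted p = 0.00994 in KO and 0.0106 in WT, against 0.3 and 0.301 without). At 12 h the difference was 0.79 in KO (adjusted p = 0.0709 with the session term) and 1.14 in WT (0.017), and at 24 h 0.33 in KO (0.488) and 0.68 in WT (0.134). The exon-crossing Mitf probe followed at r = 0.99, with 6 h changes of 1.27 ± 0.82 in KO and 1.12 ± 0.82 in WT that likewise passed only with the session term (adjusted p over all probes 0.00405 and 0.00795, against 0.31 and 0.373 without).

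Maf gave no change past the threshold with the probe that stands for it, in either fit. Its KO arrays read 5.25 and 4.91 at 0 h, 5.73 and 5.20 at 6 h, 5.43 and 5.12 at 12 h, and 5.18 and 4.95 at 24 h. Its WT arrays read 4.97 and 4.75, 6.14 and 4.99, 4.91 and 5.02, and 5.26 and 4.66. The 6 h difference was 0.39 ± 0.39 in KO (adjusted p = 0.539) and 0.70 ± 0.39 in WT (adjusted p = 0.224, or 0.0548 with the session term). Under quantile normalization it was -0.31 in KO (adjusted p = 0.609) and -0.08 in WT (0.909). The 12 h difference was 0.20 in KO and 0.11 in WT, and with normexp correction -1.49 and -1.43. Of the other 3 Maf probes, the one at base 2999 gave 0.78 ± 0.31 at 6 h in KO and 0.565 ± 0.31 in WT, and the one at base 1531 gave 1.14 ± 0.40 in KO and 0.69 ± 0.40 in WT, of which the KO values passed with the session term (adjusted p over all probes 0.0373 and 0.0181). The remaining probe belongs to a transcript with its own identifier and lies downstream, at chr8:118207168-118207226. Its 24 h change was -1.23 ± 0.49 in KO and -1.47 ± 0.49 in WT, which passed only with the session term (adjusted p over all probes 0.00866 and 0.00312, against 0.175 and 0.0913 without), and its group means correlated with the lead probe at r = 0.17. Between 6 h and 24 h the probe at base 2999 changed by -1.04 in KO and -0.95 in WT (adjusted p over all probes with the session term 0.0154 and 0.0244). Without that term no Maf probe passed at 6 h or 24 h against 0 h, or at 24 h against 6 h. The mean of all 4 probes did pass in WT for 24 h against 6 h, at -1.0 (adjusted p = 0.0392).

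Egr2, which acts in macrophage differentiation and in alternative activation, had the largest fitted fall of the 9 factors at 24 h. In KO its arrays read 2.21 and 4.06 at 0 h, 0.79 and 0.54 at 6 h, -0.21 and -1.63 at 12 h, and -0.84 and -2.53 at 24 h. In WT they read 2.75 and 3.69, 0.82 and 0.38, 0.00 and -1.01, and -2.05 and -1.84. Each LPS time lay below 0 h in both genotypes, and 24 h lay below 6 h. At single LPS times 22.5% to 29.7% of all genes in KO and 26.6% to 30.4% in WT lay below 0 h without overlap. For 24 h below 6 h the shares were 25.1% and 30.2%. Against 0 h, Egr2 fell by 2.47 on the log2 scale at 6 h in KO (5.53-fold lower, adjusted p = 0.0325) and by 2.62 in WT (6.15-fold lower, adjusted p = 0.0254), each ± 0.74. At 12 h it fell by 4.06 in KO (16.6-fold lower, adjusted p = 0.00376), and the WT change was -3.73 (13.2-fold lower, adjusted p = 0.00592). At 24 h it was 28.3-fold lower in KO (adjusted p = 0.00233) and 36.0-fold lower in WT (adjusted p = 0.00145). These sizes differed by session: within sessions 1 and 2 the 12 h change was -2.42 and -5.69 in KO and -2.75 and -4.70 in WT, and the 24 h change -3.05 and -6.59 in KO and -4.81 and -5.53 in WT.

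The fall in Egr2 continued after 6 h. Between 6 h and 24 h it was -2.36 ± 0.74 in KO and -2.55 ± 0.74 in WT, past the threshold only with the session term (adjusted p = 0.0358 and 0.028, against 0.0639 and 0.0546 without). The 24 h calls held without any single array, but the 24 h value in KO was -3.90 without the replicate 2 array at 0 h and -5.75 without the replicate 1 array at 0 h. At 12 h the KO value was -3.13 and -4.98 without the same arrays. The 6 h call was lost without either 6 h array or without the replicate 2 array at 0 h in both genotypes. Without that 0 h array the 6 h value in KO was -1.54 (adjusted p = 0.237) and in WT -2.15 (adjusted p = 0.156). The WT call at 12 h was lost without the WT replicate 2 array at 0 h or at 12 h (highest adjusted p 0.0581). With normexp correction the 6 h calls were lost (adjusted p 0.12 in KO and 0.0828 in WT), and those at 12 h and 24 h were kept.

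Egr1, the best known immediate-early member of the family, was split by session before any LPS was given. In KO it read -0.35 and 4.45 at 0 h, -0.83 and 1.03 at 6 h, -0.68 and 0.71 at 12 h, and -1.85 and 0.02 at 24 h. In WT it read 0.12 and 3.76, 0.01 and 0.67, 0.38 and 0.22, and -2.42 and 0.17. Only the replicate 2 arrays at 0 h were far above the rest. At 24 h replicate 2 was again above replicate 1, by 1.87 in KO and 2.59 in WT, more than for 98.3% and 99.6% of genes. The gap was 1.86 in KO and 0.67 in WT at 6 h, and 1.39 and -0.16 at 12 h. Within session 2 the 6 h difference was -3.42 in KO and -3.09 in WT, and within session 1 it was -0.48 in KO and -0.11 in WT. The fitted change at 6 h was -1.95 ± 1.61 in KO and -1.60 ± 1.61 in WT, and did not pass. At 24 h it was -2.96 ± 1.61 in KO (adjusted p = 0.0524 with the session term, 0.331 without it) and -3.07 ± 1.61 in WT (0.0421 with the session term, 0.287 without it).

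The split of Egr1 at 0 h was shared by other genes of rapid response. Among the 16 tested genes reported to follow or accompany Egr factors, replicate 2 was more than 1 log2 unit above replicate 1 at 0 h for 9 in KO and 7 in WT, against 6.9% and 6.4% of all genes. At 6 h and at 12 h this held for 1 gene in each genotype, against 6.0% of all genes in KO and 6.4% in WT at 6 h, and 7.1% and 5.3% at 12 h. At 24 h it held for 4 in KO and 6 in WT, against 7.5% and 6.2% of all genes. At 0 h, 4 of the 16 in KO and 3 in WT were lower by more than 1 in replicate 2, against 24.1% and 17.8% of all genes. The next 3 genes were singled out after their values were seen. Egr3 read -4.96 and -1.36 in the 2 KO arrays at 0 h and -4.90 and -1.44 in the WT arrays. Dusp1, a phosphatase that shuts off MAP kinases, read 2.04 and 5.06 in KO and 1.80 and 5.17 in WT, and Tnf read 0.22 and 4.72 in KO and 0.16 and 4.56 in WT. The replicate 1 arrays were higher in all 8 groups in the log2 summed level of 6 of 10 marker lists, those of macrophages, neutrophils, B cells, T and NK cells, dendritic cells and osteoclasts. For the 8 neutrophil markers it lay at 3.51 to 5.01 in KO against -0.22 to 2.13 in the KO replicate 2 arrays, and at 3.33 to 5.66 in WT against -0.46 to 1.80. Of these 8, 5 were well above background on all 16 arrays and Elane on none. What part these session differences have in the LPS change of Egr1, Egr2 or Mitf was not tested.

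Klf4, a factor of monocyte differentiation, was lower at each later time in its group means. In KO it read 2.68 and 3.75 at 0 h, 2.24 and 3.02 at 6 h, 1.52 and 1.92 at 12 h, and 1.29 and 1.65 at 24 h. In WT it read 2.51 and 3.92, 2.64 and 2.85, 2.30 and 2.66, and 1.91 and 2.60. The KO arrays at 12 h and 24 h lay below those at 0 h, as for 27.3% and 22.5% of all genes. The WT arrays overlapped the WT arrays at 0 h. The difference at 12 h was -1.50 ± 0.52 in KO (adjusted p = 0.0686, or 0.00283 with the session term) and -0.74 ± 0.52 in WT (0.381 and 0.0698). At 24 h it was -1.75 ± 0.52 in KO (0.0606, or 0.00202 with the session term) and -0.96 ± 0.52 in WT (0.301 and 0.0343). The decline between 6 h and 24 h passed in KO with the session term only (-1.15, adjusted p = 0.0133, against 0.183 without).

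Klf2, which restrains inflammatory activation of myeloid cells, depended on the probe. The probe that stands for it, at base 524 and 78.3% GC, read 5.43 and 5.38 in KO at 0 h, 5.57 and 6.15 at 6 h, 5.49 and 6.06 at 12 h, and 5.11 and 5.69 at 24 h. In WT it read 5.0 and 5.28, 6.21 and 6.15, 5.48 and 5.82, and 5.30 and 5.29. By this probe Klf2 was higher at 6 h by 0.46 ± 0.31 in KO (adjusted p = 0.34) and by 1.04 ± 0.31 in WT (2.06-fold, adjusted p = 0.0327). That call did not survive the removal of any 1 of the 4 WT arrays compared (highest adjusted p 0.154), and under quantile normalization Klf2 in WT was 0.25 higher at 6 h (adjusted p = 0.546). Between 6 h and 24 h it changed by -0.89 ± 0.31 in WT, past the threshold only with the session term (adjusted p = 0.0162, against 0.104 without).

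The second Klf2 probe, at base 1399 of the same transcript (chr8:74845137-74845196) and 43.3% GC, ran the other way in its group means. It read 1.04 and 3.55 in KO at 0 h, 0.95 and -0.88 at 6 h, 1.68 and 0.39 at 12 h, and 0.91 and 0.77 at 24 h. In WT it read 1.42 and 3.52, 1.29 and -0.95, 1.98 and 0.71, and 1.68 and 1.58. Its 6 h difference was -2.26 ± 1.06 in KO and -2.30 ± 1.06 in WT, which did not pass (adjusted p over all probes 0.155 and 0.147), and its group means went against those of the first probe at r = -0.83. In replicate 2 it was high at 0 h, like Egr1. Within session 1 its 6 h difference was -0.09 in KO and -0.13 in WT, and within session 2 it was -4.43 and -4.48. At 12 h it was 0.64 and 0.56 within session 1, and -3.16 and -2.81 within session 2. The direction of the Klf2 group means at 6 h thus depended on the probe read, and the fall of the second probe lay in session 2.

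**Figure D2:**
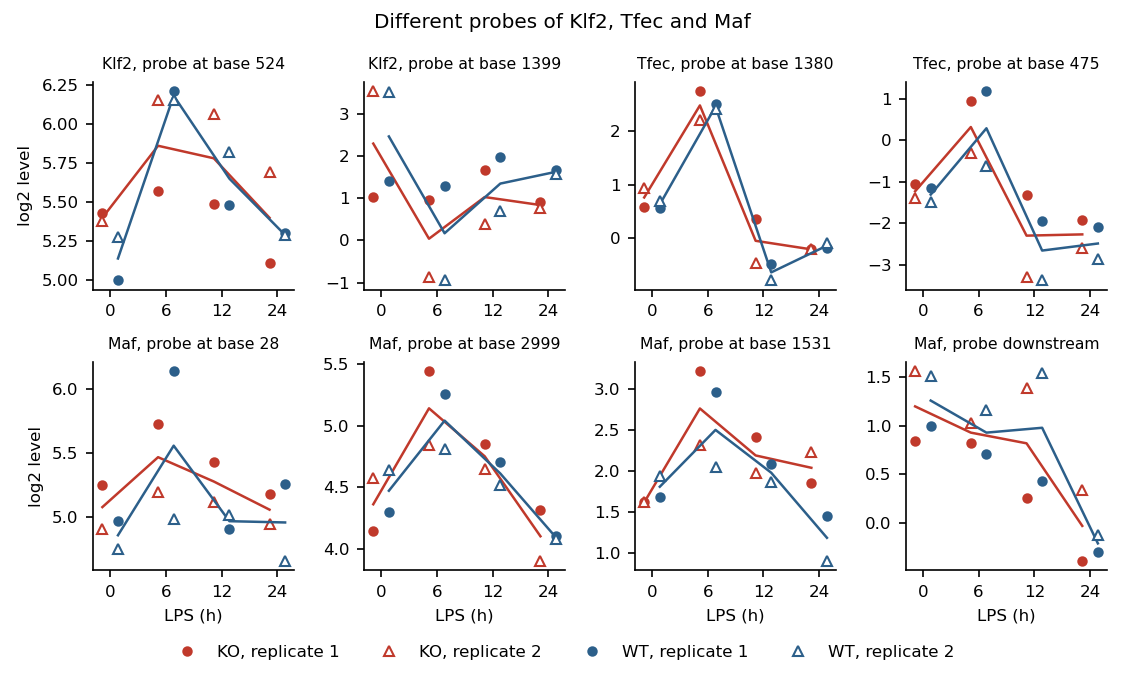
Log2 level (array upper quartile = 0) against hours of LPS for the different probes of Klf2, Tfec and Maf, named by their first base in the transcript, with a scale of its own in each panel. Circles are replicate 1, triangles replicate 2, lines their mean, KO in red to the left and WT in blue to the right. The 2 Klf2 probes run in opposite directions at 6 h, the 2 Tfec probes together, and the downstream Maf probe apart from the other 3.

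**Figure D3:**
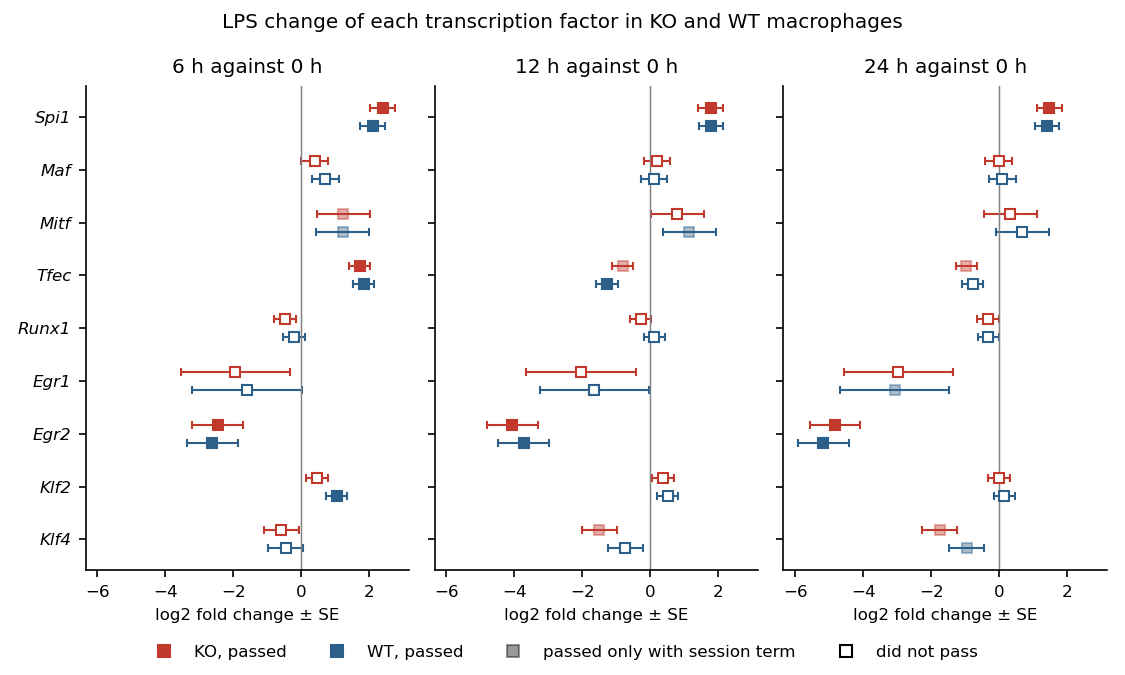
Log2 fold change ± standard error at 6, 12 and 24 h of LPS against 0 h, KO (red) above WT (blue), 2 arrays per group. Full squares passed without the session term, pale squares only with it, open squares in neither fit. Spi1 and Egr2 passed at all 3 times in both genotypes, in opposite directions.

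Loss of miR-155 did not give a detectable difference in any of the 9 factors. By limma, 0 of 9 passed for KO against WT at 0, 6, 12 or 24 h, averaged over the times, or in the joint F test of a different LPS response, without or with the session term. At an unadjusted p under 0.05 the count was 0 in all 6 tests without that term. With it, Klf4 alone had an unadjusted p under 0.05 by the probes that stand for the factors. This held at 12 h (0.0255), at 24 h (0.0218) and averaged over times (0.0167), with adjusted p from 0.872 to 1. In that fit the Maf probe at base 1531 had an unadjusted limma p of 0.0269 at 24 h (adjusted p over all probes 0.903). The exon-crossing Runx1 probe had 0.0322 averaged over times (adjusted p over all probes 0.945). Among all genes the share that passed was 0% at 0, 6 and 24 h and in the F test, 0.0113% at 12 h and 0.0170% averaged over times. With the session term it was 0.00566% at 0 h, 0.0113% at 6 h and in the F test, 0.0170% at 12 h, 0% at 24 h and 0.0227% averaged over times. The members' count was thus near that of all genes.

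Klf4 had the lowest unadjusted p of the 9 factors in the fit with the session term. At 12 h it read 1.52 and 1.92 in KO against 2.30 and 2.66 in WT, a difference of -0.76 ± 0.52 (95% interval -1.90 to 0.38). At 24 h it read 1.29 and 1.65 in KO against 1.91 and 2.60 in WT, a difference of -0.79 ± 0.52 (-1.93 to 0.36). These intervals are from the fit without the session term. With it the standard error was 0.29 at both times (unadjusted limma p 0.0255 at 12 h and 0.0218 at 24 h). The arrays of the genotypes did not overlap at either time, as for 6.99% of all genes at 12 h and 10.0% at 24 h in that direction. The KO response to LPS minus that of WT was -0.76 ± 0.73 at 12 h and -0.79 ± 0.73 at 24 h, and the F test gave an adjusted p of 1.

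Spi1 is a reported target of miR-155, and its KO arrays at 6 h (3.57 and 3.84) lay above the WT arrays (3.20 and 3.18). The difference was 0.51 ± 0.36 (95% interval -0.28 to 1.31), and such a gap was seen for 4.62% of genes at that time. Averaged over the 4 times it was 0.31 ± 0.18 (-0.09 to 0.70, adjusted p = 1). Tfec at 12 h was higher in KO, at 0.36 and -0.46 against -0.49 and -0.79 in WT (0.59 ± 0.31, interval -0.11 to 1.28), and Maf did not overlap either, at 5.43 and 5.12 in KO against 4.91 and 5.02 in WT, as for 9.04% of genes. At 24 h Tfec was lower in KO without overlap, at -0.21 and -0.21 against -0.19 and -0.09 in WT, as for 10.0% of genes. That difference was only -0.07 ± 0.31 (interval -0.76 to 0.63). By the probes that stand for the factors, Klf2 was the 1 factor without overlap at 0 h. It read 5.43 and 5.38 in KO against 5.0 and 5.28 in WT, as for 6.30% of genes. Its second probe overlapped there (-0.18 ± 1.06) but was lower in KO without overlap at 24 h (-0.79 ± 1.06). The Maf probe at base 1531 was lower in KO without overlap at 0 h (-0.185 ± 0.40) and higher at 24 h (0.86 ± 0.40). The exon-crossing Runx1 probe was lower in KO without overlap at 6 h (-0.37 ± 0.31) and 24 h (-0.44 ± 0.31). None of these differences passed in either fit. For Mitf and Egr1 the intervals were wide, -1.62 to 1.83 and -3.46 to 3.68 at 0 h. Standard errors there were 0.78 for Mitf and 1.61 for Egr1, and 0.31 and 0.97 with the session term.

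**Figure D4:**
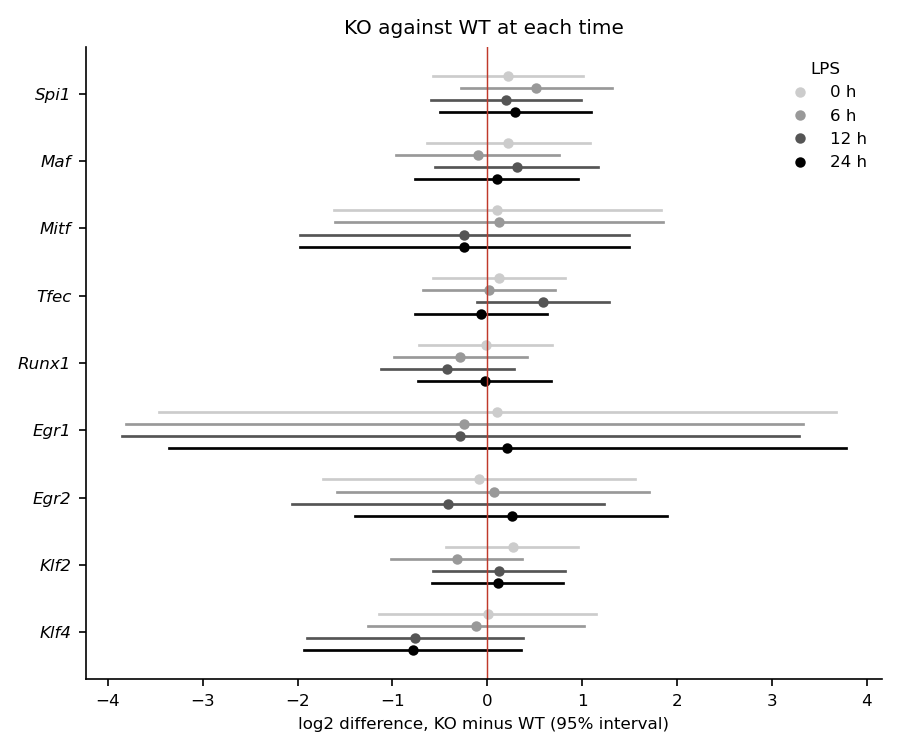
Log2 difference of KO minus WT for each factor at 0, 6, 12 and 24 h (light grey to black), with 95% intervals from limma without the session term, 2 arrays per group. All intervals include 0, and Egr1's, such as -3.46 to 3.68 at 0 h, are the widest.

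Promoter sequences were set beside these courses for the factor that fell most and the one that pulsed. The RefSeq table (GRCm38.p6) holds 13 windows of 300 bases for 6 of the 9 factors, and the 250 bases before the start of Egr2 (chr10:67537620-67537869, plus strand) and Tfec (chr6:16898442-16898691, minus strand) are printed with the searched letters in capitals. The Egr2 stretch is from 1 of its 5 windows.
Egr2: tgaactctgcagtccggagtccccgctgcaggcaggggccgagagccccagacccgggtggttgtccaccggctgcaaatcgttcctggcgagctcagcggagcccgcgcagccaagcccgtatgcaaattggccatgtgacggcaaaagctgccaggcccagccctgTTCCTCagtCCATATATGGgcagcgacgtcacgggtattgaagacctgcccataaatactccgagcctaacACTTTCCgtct
Tfec: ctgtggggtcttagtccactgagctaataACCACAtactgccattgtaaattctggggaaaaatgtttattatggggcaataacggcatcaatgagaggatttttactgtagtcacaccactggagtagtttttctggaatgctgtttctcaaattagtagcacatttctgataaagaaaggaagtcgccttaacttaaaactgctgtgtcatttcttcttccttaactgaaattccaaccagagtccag

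Motifs were searched on both strands. The Egr2 stretch holds a CArG box, the site of serum response factor, 73 bases before the start, which 1.63% of all 32851 windows hold. It also holds GAGGAA (the Spi1 core, in 28.3% of windows, here on the other strand) and ACTTTCC (letters of an NF-kB site, in 4.97%). The Tfec stretch holds TGTGGT, on the other strand (the Runx letters, in 16.8% of windows, and found too in 1 window each of Mitf and Runx1), and the full window also has GAGGAA after the start, as 1 Runx1 window has before it. Elsewhere, GCGGGGG (the Egr letters, in 10.8%) lies in the windows of Klf2 and Klf4, in 1 of the 2 of Runx1 and in another of Egr2. An E-box CACGTG (in 7.15%) lies in the windows of Klf4 and in 1 window each of Runx1 and Egr2, and TGCTGAC (Maf recognition letters, in 4.67%) in 2 of the 3 Mitf windows. GCGTGGG (5.04% of windows) was found in 1 Runx1 window, and TCATGTG (3.77%), CACACCC (7.95%) and CCATATT (2.15%) in none. These are matches of letters, not binding sites.

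Over the 8 group means the members fell into patterns of similar shape, as a description of arrays that share their sessions. Egr1 and Egr2 correlated at r = 0.97 and Egr2 and Klf4 at 0.88. Spi1 and Mitf correlated at 0.92, as did Maf and Klf2, and Spi1 and Egr2 at -0.66. The 0 h means of Egr1 lie between arrays far apart, -0.35 and 4.45 in KO and 0.12 and 3.76 in WT. Among 13327 genes with a reference symbol, the 3 closest to Spi1 were Rbis (0.994), Srsf4 (0.994) and Rnaset2a (0.992). For Egr2 they were Igfbp4 (0.998), Hebp2 (0.996) and Wdr11 (0.995), and for Egr1 Acat1 (0.99), Klrb1a (0.989) and Mmp11 (0.988). Closest to Mitf were Phc2 (0.998), Tbk1 (0.997) and Arid5a (0.997), and to Tfec Hus1 (0.99), Ppfibp1 (0.984) and Camkk2 (0.98). Maf lay nearest A1cf (0.987) and Etv2 (0.974), and Runx1 nearest Jun (0.95), Tnrc18 (0.947) and Orc1 (0.917). Klf2 lay nearest Reep2 (0.99), Prpf4b (0.986) and Ifit1bl2 (0.985), and Klf4 nearest Gyg (0.995), Iqgap2 (0.989) and Sesn3 (0.989). Of these genes A1cf, Etv2, Klrb1a and Ifit1bl2 were well above background on 3, 7, 8 and 2 of the 16 arrays, Orc1, Hebp2 and Mmp11 on 12, 14 and 15, and the others on 16. All these correlations are for the probe that stands for each member. The second probes of Runx1 and Klf2 correlated with it at 0.03 and -0.83, and the downstream Maf probe at 0.17.

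Relatives of the 9 factors changed in both directions. At 6 h, the comparison of the list counts that follow, 26.0% of all genes passed in KO and 25.4% in WT, or 43.7% and 45.6% with the session term. Of 30 tested family members, 7 rose and 6 fell at 6 h in KO and 6 rose and 3 fell in WT, or 13 and 9 in KO and 12 and 8 in WT with the session term. Their median change was 0.27 in KO and 0.46 in WT, against 0.01 and 0.06 for all genes. Klf10 fell by 3.17 ± 0.53 in KO (adjusted p = 0.00152) and by 3.68 ± 0.53 in WT (adjusted p = 0.000677). The ETS gene Fli1 fell by 3.14 in KO and 2.89 in WT. Etv6 rose by 2.74 in KO and 2.72 in WT, Klf7 by 2.45 and 2.21, and Spic, an ETS relative of Spi1 and a factor of iron-recycling macrophages, by 2.86 and 2.69. Spic was still 3.16 ± 0.64 higher at 24 h in WT (adjusted p = 0.00982).

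Of 24 partners and opponents of the factors, 9 rose and 3 fell at 6 h in KO and 9 rose and 4 fell in WT (9 and 6 in KO and 10 and 6 in WT with the session term), with a median of -0.13 in KO and -0.19 in WT. Gfi1, a repressor that antagonises Spi1, was not well above background on either 0 h array of either genotype, and was at least 201-fold higher at 6 h in KO (adjusted p = 8.24e-06) and at least 253-fold in WT (adjusted p = 7.38e-06). Such bounds set the 6 h mean against the higher, on each 0 h array, of the gene's own signal and the lowest signal among probes well above background. Irf8, which binds with Spi1 at composite sites, rose by 1.80 in KO and 2.30 in WT, and the oxysterol receptor Nr1h3 by 2.94 and 2.75. Cebpa, the factor that with Spi1 makes myeloid cells, fell by 5.88 ± 1.21 in KO (adjusted p = 0.00525), and the WT change was -6.01 ± 1.21 (adjusted p = 0.00479). Bhlhe40 fell by 3.76 in KO, where 1 of its 2 arrays at 6 h was well above background, and 3.69 in WT. For Fos the change was -2.76 in KO (adjusted p = 0.05, not below the threshold) and -2.8 in WT (adjusted p = 0.0485), and within sessions 1 and 2 it was -1.32 and -4.21 in KO and -1.37 and -4.23 in WT.

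Of 23 genes reported to follow Spi1 in macrophages, 8 rose and 0 fell at 6 h in each genotype by limma (with the session term, 9 rose and 1 fell in KO, 10 and 0 in WT), with a median of 0.71 in KO and 0.83 in WT, against 0.01 and 0.06 for all genes. The high-affinity Fc receptor Fcgr1 rose by 3.16 ± 0.52 in KO (adjusted p = 0.00148) and 3.56 ± 0.52 in WT (adjusted p = 0.000762), and the scavenger receptor Msr1 by 3.62 and 3.45. At 24 h 7 of the 23 were higher in KO and 6 in WT, and 0 lower in either genotype (1 in each with the session term), where 9.90% of all genes passed in KO and 11.0% in WT (24.1% and 27.4% with the session term).

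Genes reported to follow Maf split. Of 15, 2 rose and 3 fell at 6 h in KO and 3 and 3 in WT, or 6 and 4 in KO and 6 and 5 in WT with the session term, with a median of 0.53 in KO and 0.73 in WT. Il12b, a subunit of IL-12, was not well above background at 0 h and was at least 4560-fold higher at 6 h in KO (adjusted p = 2.37e-06) and at least 3530-fold in WT (3.42e-06). Its partner Il12a was likewise at least 66.3-fold and 59.5-fold higher in KO and WT (adjusted p = 0.00186 and 0.000997). Mertk was 0.92 ± 0.31 higher in KO (adjusted p = 0.0505, not called) and 1.35 ± 0.31 in WT (adjusted p = 0.00917). The change of Cd163 was -4.18 in KO, where 1 of 2 arrays at 6 h was well above background, and -3.63 in WT. Within sessions 1 and 2 it was -2.32 and -6.05 in KO and -2.6 and -4.65 in WT. Gas6 fell by 2.20 and 1.98, and the mannose receptor Mrc1 by 2.14 and 1.82. At 24 h the Mrc1 change in WT was -5.61 ± 0.52 (adjusted p = 0.00012).

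Of 18 genes reported to follow Mitf or its relatives, 4 rose and 1 fell at 6 h in KO and 4 and 0 in WT (4 and 4, and 5 and 2, with the session term), with medians of -0.09 and 0.02. Car2 rose by 5.78 ± 1.01 in KO (adjusted p = 0.00202) and 6.02 ± 1.01 in WT (adjusted p = 0.00169), Acp5 by 4.53 and 4.35, and Hif1a by 2.07 and 2.09. Of 16 genes that follow or accompany Egr factors, 8 rose and 2 fell in KO and 6 rose and 1 fell in WT (9 and 2, and 8 and 1, with the session term), with medians of 1.22 and 1.19. Il1b rose by 9.33 in KO and 8.89 in WT, Ptges by 7.06 and 6.69, and Tnf by 5.65 and 5.36, while Nr4a1 changed by -3.61 in KO and -3.88 in WT. Within sessions 1 and 2 the change of Tnf was 7.95 and 3.35 in KO and 7.80 and 2.91 in WT, and that of Il1b 10.74 and 7.91 in KO and 10.47 and 7.31 in WT. Of 18 genes that follow Klf2 or Klf4, 10 rose and 5 fell in KO and 8 rose and 4 fell in WT, with medians of 2.29 and 2.21 (11 and 5, and 10 and 5, with the session term). Nos2, not well above background at 0 h, was at least 677-fold higher in KO (adjusted p = 1.16e-05) and at least 744-fold in WT (1.34e-05), and Ptgs2 rose by 11.0 in KO, where 1 of the 2 arrays at 0 h was well above background, and 10.21 in WT. Within sessions 1 and 2 the Ptgs2 change was 13.24 and 8.76 in KO and 11.96 and 8.45 in WT. Sizes differed between sessions for many of the 33 genes picked from the 7 lists. Their 6 h changes were more than 1 log2 unit apart for 20 in KO and 15 in WT. The anticoagulant receptor Thbd fell by 5.33 in KO and 4.8 in WT, S1pr1 by 4.79 and 5.12, and Pparg by 2.42 and 2.33.

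No gene of these 7 lists passed for KO against WT: 0 by limma at each time and averaged over times, without and with the session term. Some markers of other cell types were detected. Well above background on all 16 arrays were 3 of 6 B cell, 3 of 7 T and NK cell, 3 of 7 dendritic cell, 0 of 5 mast cell, 2 of 4 erythroid, 4 of 6 stromal, 2 of 4 endothelial and 6 of 7 osteoclast markers. Ncr1, Cpa3 and Pdgfra were on none. At 6 h against 0 h, the log2 summed level of the endothelial markers was 0.97 and 2.64 against -1.94 and -2.29 in KO and 1.44 and 2.41 against -2.06 and -1.83 in WT. That of the T and NK cell markers was 1.85 and 0.85 against -0.98 and -2.43 in KO and 2.30 and 1.90 against -1.0 and -2.74 in WT. That of the stromal markers was 7.17 and 7.72 against 6.37 and 5.90 in KO and 7.42 and 7.39 against 6.15 and 5.82 in WT. These 3 sums were thus higher at 6 h on every array, as Spi1 was. So was the macrophage sum, at 11.46 and 11.23 against 10.86 and 9.84 in KO and 11.52 and 10.94 against 10.59 and 9.73 in WT. Their brightest genes at 6 h were Kdr (mean -2.69 to 1.68 in KO, -2.7 to 1.85 in WT), Lck (-5.56 to 1.14, -5.54 to 1.94) and Acta2 (6.12 to 7.43, 5.97 to 7.39) for the first 3 sums. In those lists Cd4 and Klrb1c were lower in KO, and Tek in WT. The macrophage markers did not move together either. Mean Csf1r went from 7.0 to 6.6 in KO and from 6.85 to 6.34 in WT. Cd68 changed little (7.06 to 7.07 and 6.96 to 6.93), and the others were higher, such as Fcgr1 (5.88 to 9.03 and 5.49 to 9.05). Other sums went the other way. The erythroid sum at 6 h was -2.41 and -2.31 against -0.18 and 1.25 in KO. In WT it was -2.02 and -2.61 against 0.25 and 0.62. The B cell sum was also lower at 6 h on every array, and the neutrophil sum was lower within each session. Dendritic and mast cell sums went both ways. The part of any of these sums in the rise of Spi1 was not tested. Osteoclasts are a cell type in which Mitf and Tfec act, and their marker list shares Acp5 with the Mitf list. In KO the osteoclast sum in replicate 1 was 3.08 at 0 h, 3.69 at 6 h, 2.87 at 12 h and 2.17 at 24 h, and in replicate 2 it was 2.55, 3.17, 2.36 and 1.86. In WT it was 3.41, 3.53, 3.0 and 2.20 in replicate 1 and 2.33, 2.77, 2.39 and 1.69 in replicate 2. It was highest at 6 h and lowest at 24 h in each genotype and replicate, but its genes did not move together. From 0 h to 6 h mean Acp5 went from -1.49 to 3.04 in KO and from -1.86 to 2.49 in WT. Atp6v0d2 went from 2.27 to 0.12 in KO and from 2.39 to 0.75 in WT. Ctsk and Dcstamp were also lower at 6 h in both genotypes, and Calcr, Oscar and Mmp9 higher. The part of this sum in the courses of Mitf and Tfec was not tested.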

How the data were processed

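Per the file headers, the deposited scanner files give the intensity of each spot of single-colour arrays, background-subtracted and detrended by Agilent Feature Extraction, the tool also named in the submitters' processing notes. The authors' deposited series table holds log2 values of the same arrays (r = 1 with the log2 scanner signals) and served as an alternative. Control spots and outlier spots (61 to 108 an array) were left out, and 0 spots were saturated. Spots of a probe were averaged on the log2 scale, and each array was centred on its 75th percentile. Probes well above background on both arrays of a group were kept (26855), and a gene was read by its brightest probe. Group means were fitted with limma 3.58.1 (R 4.3.3) without a replicate block, and p-values adjusted by Benjamini-Hochberg over 17659 genes. The fit was tested on simulated data.

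Deviations of same-numbered arrays correlated at 0.40 to 0.84 over 28 pairs of groups (median 0.58). Per the file headers each number is one scan session, so the numbers were taken as pairs and a fit with the session as a term was run too. Other alternatives changed the normalization, background correction, filter, slide block, probe choice or left out an array. All 9 members, called or not, are reported, with up to 3 genes each way, by size of change, that passed at 6 h in WT without overlap of arrays from each of 7 related lists, and 10 lists of cell type markers. The 3 nearest genes of each member go by Pearson's r over 8 group means. Some genes that these rules name are not reported here. Members, lists and rules were chosen with earlier results of these data known. Sequences are from the array files (mm9) and RefSeq (GRCm38.p6). Promoters of 3 members were not analysed here.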

Additional observations from a re-analysis of the deposited data

How the results depend on the processing

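The counts of members that passed moved by more than 1.5 times under these settings. With the replicate block (session), 4 members passed at 12 h in KO, and at 24 h in KO and in WT, and 4 in KO and 3 in WT for 24 h against 6 h; with the slide as a block the last comparison gave 3 in each. With normexp background correction 0 passed at 6 h and for 24 h against 6 h in either genotype, and 1, Egr2, at 12 h and at 24 h in each. That setting called 425 genes at 6 h in KO and 509 in WT, against 4598 and 4489, and the replicate block 7719 and 8047. With median scaling 1 passed at 12 h and at 24 h in each genotype, and Spi1 lost its calls there (1.89 in KO and 2.09 in WT at 12 h, 1.77 and 1.76 at 24 h, adjusted p 0.0539 to 0.159); without a detection filter 1 passed at 24 h in WT. For 24 h against 6 h in WT, 2 passed with quantile normalization, with detection in every group and with the mean of all probes, and 2 in KO with detection in every group. The normexp values of Spi1 at 12 h were 0.47 in KO and 0.63 in WT. Leaving out 1 array at a time gave 2 to 3 members at 6 h in KO and 2 to 4 in WT, 1 to 3 and 0 to 3 at 12 h, 1 to 3 and 1 to 2 at 24 h, and 1 to 2 in each for 24 h against 6 h. KO against WT stayed at 0 in every setting run.

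One called value reversed: Klf2 at 6 h in WT was -0.63 with the mean of both probes (adjusted p = 0.444) and -2.30 with its other probe (adjusted p = 0.147), an alternative chosen after seeing the data. The cause was not tested. The deposited series table changed none of 126 member results. Quantile normalization moved the median gene by up to 0.15 (log2) and median scaling by up to 0.359. With the mean of all probes, Maf in WT passed for 24 h against 6 h, and Tfec at 12 h in WT did not (-1.31, adjusted p = 0.105). All 16 member probes were well above background on all 16 arrays.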
